A study of Mus musculus with 19 samples.

Results

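Keratins are the intermediate filaments of epithelial cells, and desmosomes, tight junctions, adherens junctions and gap junctions are the contacts that hold those cells in a sheet, seal the space between them and join their cytoplasm. The set described here holds 43 such genes of the 51707 to which the deposited transcripts were summed. It was chosen by name, from what the genes encode, and all 43 were found in the tables. By role it has 12 keratins, 3 desmosomal cadherins, 7 desmosomal plaque proteins, 9 claudins, 4 other membrane proteins of tight junctions, 3 tight junction scaffold proteins, 2 adhesion molecules and 3 connexins.

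All 19 RNA-seq libraries came from pancreatic ductal adenocarcinomas (PDAC) that grew in C57BL/6J mice after T-LOH KPC organoids, which are cultures of mouse pancreatic tumour cells, had been transplanted orthotopically, that is into the pancreas. The mice received neratinib, an irreversible inhibitor of ERBB receptor tyrosine kinases, or vehicle for 2 weeks, and the study asked what the drug did in each of 2 sorted populations. Sorting for podoplanin (PDPN+) was used to take cancer-associated fibroblasts, with 4 libraries from vehicle and 4 from neratinib mice, and sorting for EpCAM (EpCAM+) to take epithelial cells, with 6 and 5 libraries. A letter is set before each mouse number, V for vehicle and N for neratinib. The host mice kept their own stroma, and no untreated or tumour-free animals are among the samples. The 5-digit number in the labels was read as the mouse, which is an inference on which the p-values rest: 11 mice gave libraries, 8 of them both populations and 3 EpCAM+ cells alone. The gene Epcam encodes the surface protein used for the EpCAM+ sort, so its difference between the sorts checks the labels.

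Simple, single-layered epithelia such as the pancreatic ducts pair the type II keratins K7 and K8 with the type I keratins K18 and K19, while K5, K6, K14, K15 and K17 belong to stratified or stressed epithelia. Each filament is built of type I and type II chains in equal amounts. Claudins set which ions pass a tight junction, desmosomal cadherins and plaque proteins tie the keratin filaments of neighbouring cells together, and connexins form channels between cells. Mesothelium, the lining of the abdominal cavity, also makes simple keratins, and podoplanin lies on mesothelial and lymphatic endothelial cells as well as on fibroblasts.

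Depth ranged from 30.3 to 75.4 M reads assigned to genes (M for mega), and 11924 to 18602 genes reached 10 reads in a PDPN+ library against 16542 to 17984 in an EpCAM+ library. The labelled cell types were checked against their markers: all 10 fibroblast markers were higher in PDPN+ libraries, with a summed level of 10927 to 16785 TPM (transcripts-per-million, a level that takes account of transcript length) against 13.3 to 128 TPM, and all 10 epithelial markers were lower there, at 34.5 to 118 TPM against 5367 to 9638 TPM. The share of mitochondrial reads was 6.14 to 19.45% in PDPN+ cells and 2.15 to 2.89% in EpCAM+ cells. Along the main axis of variation 3 EpCAM+ libraries (V53175, V53176 and N53178) and 2 PDPN+ libraries (V53175 and V53188) stood apart from the rest of their sort, and values without them are given beside the results they moved most.

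The genes of this set were abundant in EpCAM+ cells and sparse in PDPN+ cells. They held 2.16 to 2.97% of all TPM in EpCAM+ libraries and 0.0520 to 0.200% in PDPN+ libraries, so the lowest EpCAM+ library lay above the highest PDPN+ library. Of the 43 genes, 39 had at least 10 reads in every EpCAM+ library, and 9 had them in every PDPN+ library. In PDPN+ libraries 27 genes were at 0 reads in at least 1 library, and Krt5, Dsg3 and Cldn23 were at 0 in all 8. The number of genes with 10 reads varied there from 13, in mouse V53188 and mouse N53178, to 34, in mouse V53185.

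In the comparison of PDPN+ with EpCAM+ libraries, 42 of the 43 genes could be tested (Cldn1 had too few reads), by edgeR's quasi-likelihood test over all genes with Benjamini-Hochberg adjustment and a threshold of 0.05. Of these 42, 37 were lower in PDPN+ cells, 2 were higher (Cldn15 and Gja1) and 3 did not pass (Krt6a, Krt14 and Krt15). The sorts differed widely in general: 49.3% of the 19626 genes tested passed, 25.0% as lower and 24.3% as higher in PDPN+ cells. The median log2 difference of the 42 genes was -4.90, or -4.67 with the genes at 0 in all PDPN+ libraries set to their bound, against -0.13 over all genes tested. It was -6.16 without the PDPN+ library of mouse V53179, -6.04 without that of mouse N53184 and -6.87 with mice as blocks. Leaving out 1 PDPN+ library moved 22 of the 39 called differences by over 1.5 times, all of them away from 0. None of these 22 lost its call. Evpl moved less, and its call was lost without the PDPN+ library of mouse V53179, V53185 or N53184 (edgeR adjusted p 0.0580, 0.0556 and 0.0575). Of the libraries that stand apart, leaving out the 3 EpCAM+ ones moved Epcam by over 1.5 times, to -10.16, and leaving out the 2 PDPN+ ones moved Gjb2 to -10.63, Pkp1 to -10.25 and Gjb1, which had 1 read in PDPN+ cells, to -16.24. In sorted bulk RNA, fewer cells of a type and less RNA per cell cannot be told apart.

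**Figure D1:**
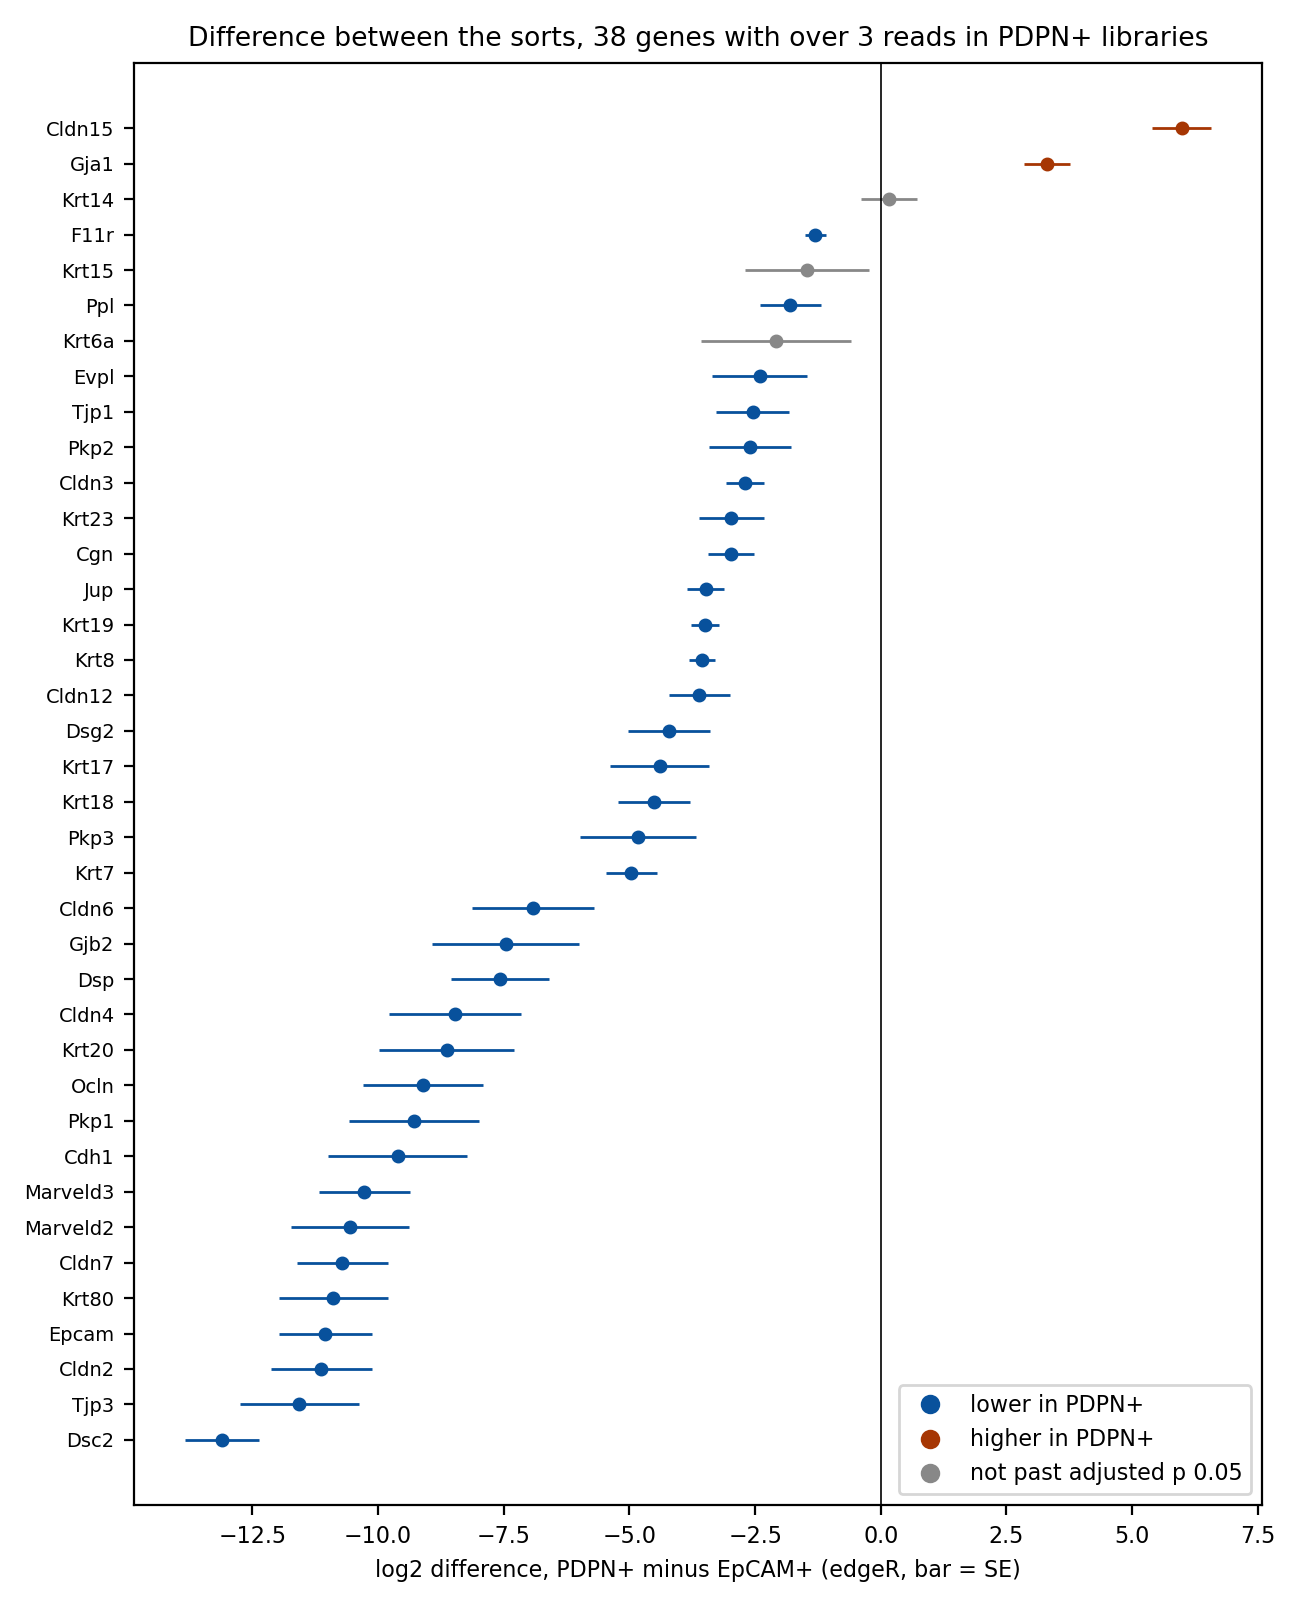
The log2 difference between the sorts, PDPN+ minus EpCAM+, as a point with its SE as a bar. All tested genes are shown except Krt5, Dsg3, Cldn23 and Gjb1, which had 0 or 1 reads in PDPN+ libraries. Points left of 0 are lower in PDPN+ cells, and Cldn15 and Gja1 are the called genes to the right of 0, at 5.99 and 3.31.

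Because nearly all of these genes differed in the same direction, the promoter windows of 5 genes that were lower in PDPN+ cells and of the 2 that were higher are shown, picked after their values were known. Each window runs from 250 bases before to 50 after an annotated start and is taken from RefSeq on GRCm38.p6, another build than the GRCm39/mm39 named in the submitters' processing notes. Capitals mark the E-box CACCTG or its reverse complement CAGGTG, the letters bound by the SNAI and ZEB repressors of epithelial genes, and position 0 is the annotated start.
Krt8, chr15:102004293-102004592, minus strand: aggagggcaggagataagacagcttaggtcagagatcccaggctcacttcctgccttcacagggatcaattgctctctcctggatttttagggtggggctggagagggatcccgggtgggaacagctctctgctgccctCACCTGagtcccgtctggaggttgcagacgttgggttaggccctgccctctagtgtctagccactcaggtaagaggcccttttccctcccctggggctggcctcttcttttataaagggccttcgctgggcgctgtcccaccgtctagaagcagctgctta
Krt18, chr15:102027966-102028265, plus strand: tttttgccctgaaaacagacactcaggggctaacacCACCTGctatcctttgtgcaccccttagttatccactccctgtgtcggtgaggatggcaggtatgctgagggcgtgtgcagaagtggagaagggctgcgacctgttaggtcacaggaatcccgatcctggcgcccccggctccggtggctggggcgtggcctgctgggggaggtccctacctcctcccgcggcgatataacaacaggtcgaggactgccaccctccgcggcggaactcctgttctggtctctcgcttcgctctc
Cldn3, chr5:134985964-134986263, plus strand: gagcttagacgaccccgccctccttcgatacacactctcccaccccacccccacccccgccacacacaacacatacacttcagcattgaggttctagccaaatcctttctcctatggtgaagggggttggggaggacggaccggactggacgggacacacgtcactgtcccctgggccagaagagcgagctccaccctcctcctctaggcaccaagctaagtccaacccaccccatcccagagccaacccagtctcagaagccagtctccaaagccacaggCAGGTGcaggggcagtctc
Cldn4, chr5:134946885-134947184, minus strand: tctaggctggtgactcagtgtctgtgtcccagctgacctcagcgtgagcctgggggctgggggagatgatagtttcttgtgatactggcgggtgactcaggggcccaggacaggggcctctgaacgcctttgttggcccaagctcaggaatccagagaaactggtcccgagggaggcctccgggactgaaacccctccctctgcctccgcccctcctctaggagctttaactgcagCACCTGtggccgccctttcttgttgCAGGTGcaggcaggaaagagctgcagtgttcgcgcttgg
Epcam, chr17:87635729-87636028, plus strand: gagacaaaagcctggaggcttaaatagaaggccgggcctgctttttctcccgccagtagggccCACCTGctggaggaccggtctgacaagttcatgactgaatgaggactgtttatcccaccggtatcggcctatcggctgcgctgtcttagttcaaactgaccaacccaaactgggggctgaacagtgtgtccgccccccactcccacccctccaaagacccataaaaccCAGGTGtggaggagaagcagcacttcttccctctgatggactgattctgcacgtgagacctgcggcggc
Cldn15, chr5:136967619-136967918, plus strand: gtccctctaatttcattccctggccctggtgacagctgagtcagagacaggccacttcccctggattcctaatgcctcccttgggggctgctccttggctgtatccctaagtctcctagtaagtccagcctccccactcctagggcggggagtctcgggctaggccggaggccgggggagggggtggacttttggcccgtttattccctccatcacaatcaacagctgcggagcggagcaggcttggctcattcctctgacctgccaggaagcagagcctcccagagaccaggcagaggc
Gja1, chr10:56377050-56377349, plus strand: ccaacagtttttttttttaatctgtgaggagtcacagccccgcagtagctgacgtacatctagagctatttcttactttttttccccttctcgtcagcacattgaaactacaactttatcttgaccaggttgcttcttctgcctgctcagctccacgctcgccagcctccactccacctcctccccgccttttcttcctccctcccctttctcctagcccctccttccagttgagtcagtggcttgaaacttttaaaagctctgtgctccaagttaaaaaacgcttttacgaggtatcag
The E-box lies at -111 in Krt8, at -214 in Krt18, at 31 in Cldn3, at -14 and 11 in Cldn4 and at -187 and -19 in Epcam, and there is none in the windows of Cldn15 and Gja1. Nor is there one in any window of Cgn, Cldn12, Cldn2, Jup, Krt20 and Tjp1, 6 genes that were also lower in PDPN+ cells. Krt8 and Krt18 lie on the same chromosome on opposite strands, as do Cldn4 and Cldn3.

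RefSeq windows were at hand for 27 of the 43 genes, 36 windows in all. On either strand the E-box was in 20 of the 36 (55.6%), against 20.2% of 32851 windows of all genes. The AP-1 motif TGACTCA, or TGAGTCA on the other strand, was in 4 of the 36 (11.1%, in Cldn15, Cldn4, F11r and Gja1) against 5.2%. In Cldn15 it starts at -214 and in Gja1 at -19. The letters AACCGG or CCGGTT, the core bound by grainyhead factors, were in 4 windows (11.1%) against 6.8%, and TATAAA or TTTATA in 6 (16.7%) against 13.6%. Median GC content was 58.5% in these windows and 52.7% in all windows. A match describes the letters of the window and is not evidence that a factor binds there.

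Simple keratins led the set in EpCAM+ libraries. By median TPM Krt18, Krt19 and Krt8 ranked 9th, 10th and 17th of all genes in EpCAM+ libraries. Krt18 ran there from 5041 to 7172 TPM with a median of 5876, Krt19 from 4052 to 6838 TPM with a median of 5370.4, and Krt8 from 3980.2 to 5627 TPM with a median of 4777. The ranges of these 3 overlapped between libraries, although Krt18 was above Krt8 within each of the 11. Krt7, the other type II keratin of ducts, followed at 1048 to 2009 TPM with a median of 1461, below every value of the other 3. Krt20, a keratin of gastrointestinal surface epithelium, was at 479 to 1685 TPM with a median of 965, and Krt23, another type I keratin, at 76.7 to 196 TPM with a median of 166.

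PDPN+ cells held measurable amounts of the same simple keratins. PDPN+ values are given from here on in the order of mice V53175, V53179, V53185 and V53188 and of mice N53178, N53180, N53184 and N53194. Krt8 was at 341, 438, 277 and 130.0 TPM in the vehicle libraries and 82.5, 447, 319 and 247 TPM in the neratinib libraries, all below the lowest EpCAM+ library, with a log2 difference of -3.56 (SE 0.27, adjusted p 4.28e-09). Krt19 was at 563, 364, 259.9 and 166 TPM in the vehicle libraries and 118, 392, 439 and 564 TPM in the neratinib libraries, with a log2 difference of -3.50 (SE 0.27, adjusted p 7.07e-09). In both genes mouse V53188 and mouse N53178 had the lowest levels, and no PDPN+ library reached any EpCAM+ library. The mean level in PDPN+ libraries was 6.44% of that in EpCAM+ libraries for Krt19 and 6.12% for Krt8.

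Krt18, the usual type I partner of K8, was at 293, 283, 228 and 0.0918 TPM in the vehicle libraries and 73.3, 317, 224 and 115 TPM in the neratinib libraries. The library of mouse V53188 stood out, with 4 reads of Krt18 beside 130.0 TPM of Krt8. The ratio of Krt18 to Krt8 in TPM was 0.00071 there, 0.464 to 0.888 in the other 7 PDPN+ libraries and 1.05 to 1.502 in EpCAM+ libraries. The log2 difference of Krt18 between the sorts was -4.51 (SE 0.71, adjusted p 3.74e-05). Krt7 was at 69.7, 36.6, 33.4 and 4.91 TPM in the vehicle libraries and 1.10, 18.7, 27.0 and 58.5 TPM in the neratinib libraries, lowest in the same 2 mice, with a log2 difference of -4.96 (SE 0.51, adjusted p 2.37e-07).

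Krt20 and Krt23 were both lower in PDPN+ cells. Krt20 was listed at 0 in 4 PDPN+ libraries and reached at most 6.68 TPM (log2 difference -8.64, SE 1.34, adjusted p 2.89e-05). Krt23 was at 17.5, 25.9, 10.5 and 30.9 TPM in the vehicle libraries and 0, 4.03, 4.72 and 27.6 TPM in the neratinib libraries, so that 3 libraries held over 25 TPM and mouse N53178 none. Its log2 difference was -2.97 (SE 0.65, adjusted p 8.27e-04), and its mean PDPN+ level was 9.82% of the EpCAM+ level against 0.176% for Krt20.

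Levels of other cell types' markers are given beside the keratin signal of PDPN+ cells. Of the 10 epithelial markers 3 had 10 reads in every PDPN+ library and none was at 0 in all of them. Of the 8 mesothelial markers 7 had 10 reads in every PDPN+ library, 7 were higher there than in EpCAM+ libraries, and their summed level ran from 336 TPM (mouse V53188) to 1579 TPM (mouse V53175). The next lowest sum, 374 TPM, was in mouse N53178, so the 2 libraries with the lowest Krt7, Krt8 and Krt19 were those with the lowest mesothelial sum. They also had the highest mitochondrial shares, 17.32% in mouse V53188 and 19.45% in mouse N53178, and mouse V53188 had the lowest epithelial marker sum, 34.5 TPM. Marker by marker, Msln, Upk1b, Lrrn4 and Bnc1 were lowest in the same 2 libraries, but the others did not all follow the sum. Upk3b was lowest in mouse N53184 (91.3 TPM), Wt1 in mouse V53175 (44.1 TPM) and Cdh2 in mouse N53180 (0.702 TPM). Gpm6a was lowest in mouse N53178 (35.8 TPM) and next in mouse N53184 (43.8 TPM). The mesothelial antigen Msln did not pass between the sorts (732 TPM in EpCAM+ and 321 TPM in PDPN+ libraries, log2 difference -0.63, adjusted p 0.0528). Lymphatic endothelial markers summed to 900.5 TPM in mouse N53178 and to at most 79.4 TPM in the other PDPN+ libraries, and Ccl21a alone gave 894.5 TPM of the sum in mouse N53178. The part of these cells and of RNA quality in the keratin levels was not tested.

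**Figure D2:**
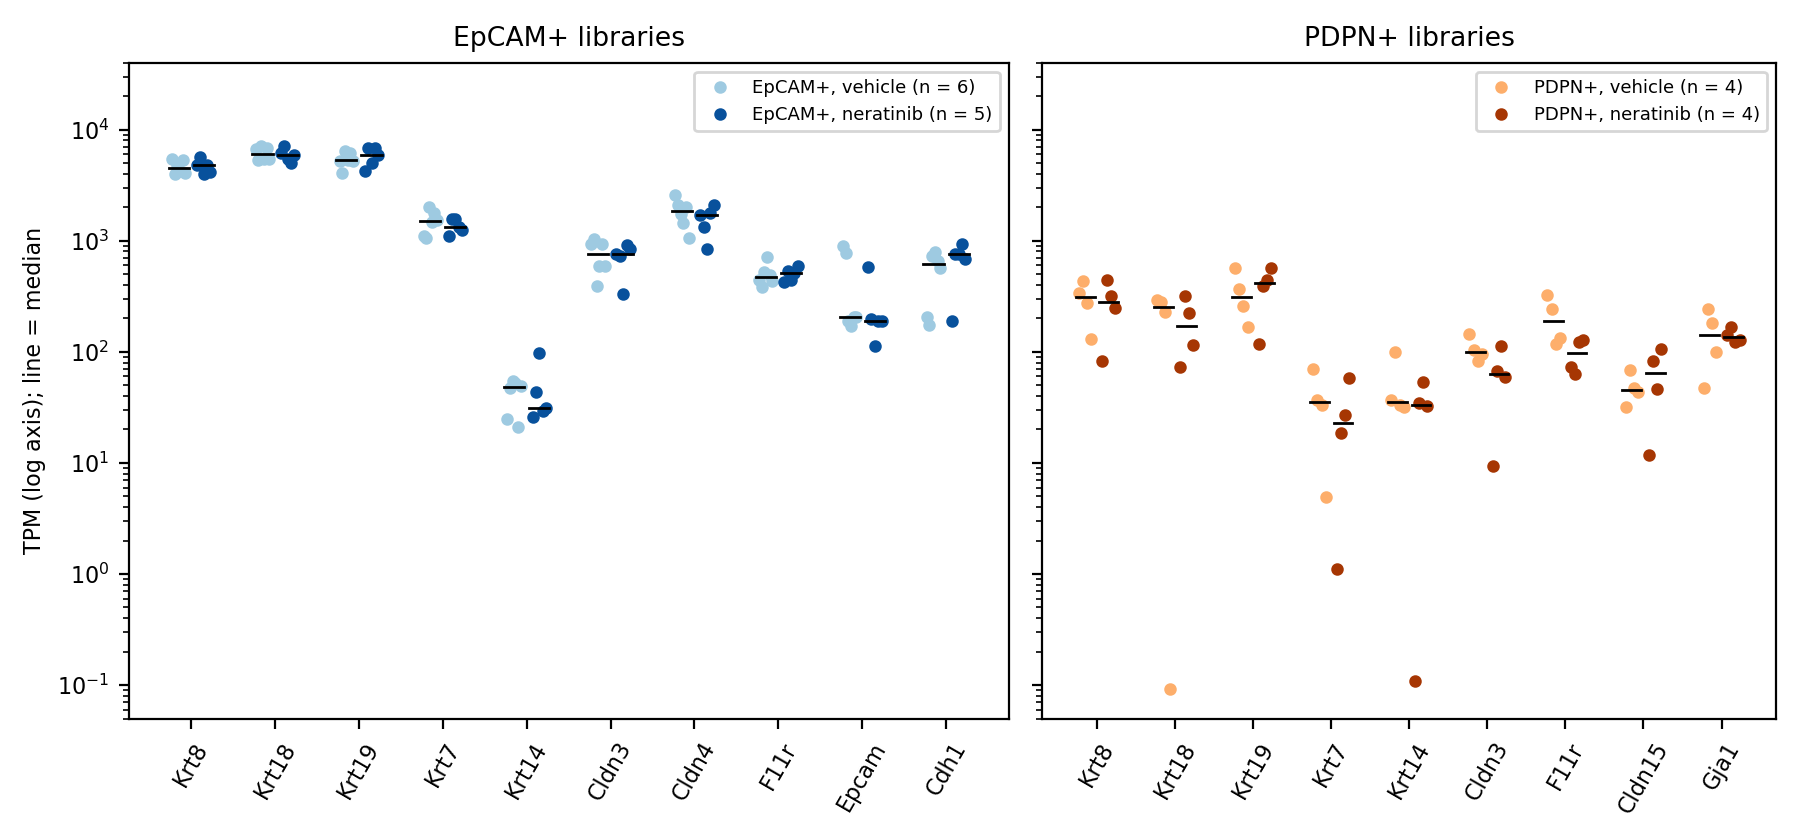
TPM on a log axis for selected genes, each point 1 library and each line the median, in EpCAM+ and PDPN+ libraries. Krt8, Krt18 and Krt19 of EpCAM+ libraries lie between 3980.2 and 7172 TPM, and the lone low point of Krt18 is the PDPN+ library of mouse V53188.

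Type I and type II keratins stayed in a like proportion in the sorts. Summed over the 12 keratins, the ratio of type I to type II TPM was 2.10 ± 0.14 in EpCAM+ libraries (SD, n = 11, range 1.96 to 2.44) and 1.96 ± 0.33 in PDPN+ libraries (SD, n = 8, range 1.61 to 2.42), while the keratin sum itself was 15533 to 23100.2 TPM in EpCAM+ libraries and 275 to 1321 TPM in PDPN+ libraries. These ranges overlap. In reads, without the correction for length, the ratio was 1.45 and 1.37. Krt8, Krt18 and Krt19 together made up 84.1 to 88.3% of keratin TPM in EpCAM+ libraries and 81.4 to 99.6% in PDPN+ libraries.

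Keratins of stratified epithelia were low, and 3 of the 6 were not called between the sorts. Krt14, the basal-layer type I keratin, was at 21.1 to 96.6 TPM with a median of 43.6 in EpCAM+ libraries and at 36.9, 99.1, 33.3 and 31.9 TPM in the vehicle libraries and 0.109, 34.7, 53.2 and 32.3 TPM in the neratinib libraries. Vehicle mouse V53179 was the highest of all 19 libraries and mouse N53178 the lowest, and the sorts overlapped, with a log2 difference of 0.16 (SE 0.56, adjusted p 0.836). The sign of that difference turned under 2 other fits, to -0.57 with limma and -0.29 with mice as blocks. Krt15, another basal keratin, was at 2.21 to 6.84 TPM in EpCAM+ libraries and above 1 TPM in 2 PDPN+ libraries only, mouse V53185 (2.10 TPM) and mouse N53184 (8.01 TPM). Its log2 difference of -1.47 (SE 1.23, adjusted p 0.341) passed when either of those libraries was left out (-3.80 and -6.68, adjusted p 0.0269 and 8.25e-04), with mice as blocks (-7.15, adjusted p 0.0386) and with limma (-1.71, adjusted p 8.16e-04).

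Krt6a, a keratin induced by wounding, reached at most 0.417 TPM in EpCAM+ libraries and 1.99 TPM, from 166 reads, in mouse V53179 alone among PDPN+ libraries (log2 difference -2.09, SE 1.50, adjusted p 0.269). Without that library the log2 difference was -6.32 (adjusted p 0.00359), and over all libraries DESeq2 gave -8.89 (adjusted p 1.05e-08). Krt17, a stress keratin, was at 0.0686 to 2.96 TPM with a median of 1.26 in EpCAM+ and 0 to 0.402 TPM with a median of 0.0107 in PDPN+ libraries (log2 difference -4.40, SE 0.98, adjusted p 0.00105). Krt80, which is made in differentiating epithelium, was at 3.69 to 21.5 TPM with a median of 13.7 in EpCAM+ libraries and above 0 only in mouse V53185 among PDPN+ libraries, at 0.0874 TPM (log2 difference -10.89, SE 1.08, adjusted p 6.34e-07). Krt5, the type II partner of K14, had 154 reads over all EpCAM+ libraries and 0 in PDPN+ libraries. With 3 reads in the least deeply sequenced PDPN+ library taken as the limit, it was at least 2.40-fold higher in EpCAM+ cells. Near-identical copies such as Krt6b beside Krt6a, and Krt16 beside Krt14 and Krt17, may share reads.

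Desmosomal genes were lower in PDPN+ cells throughout, all 3 cadherins and all 7 plaque genes passing. Desmocollin 2 (Dsc2), an adhesive cadherin of simple epithelia, was at 47.0 to 130.4 TPM with a median of 89.1 in EpCAM+ libraries and at most 0.104 TPM in PDPN+ libraries (log2 difference -13.10, SE 0.74, adjusted p 9.42e-11). Its partner desmoglein 2 (Dsg2) was at 29.9 to 54.7 TPM with a median of 40.9 in EpCAM+ libraries and 0.00526, 2.63, 1.27 and 0.0102 TPM in the vehicle libraries and 0.310, 0.449, 4.05 and 6.66 TPM in the neratinib libraries (log2 difference -4.22, SE 0.82, adjusted p 3.13e-04). Neratinib mouse N53194 held the highest of these PDPN+ values and mouse V53175 the lowest. Desmoglein 3 (Dsg3), the stratified form, was low even in EpCAM+ libraries, at 0.442 to 1.68 TPM with a median of 0.987, and with 0 reads in PDPN+ libraries was at least 31.6-fold higher in EpCAM+ cells.

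Among plaque genes, plakoglobin (Jup), which binds both desmosomal and classical cadherins, was the most abundant, at 149 to 441 TPM with a median of 307 in EpCAM+ and 6.29 to 31.9 TPM with a median of 14.1 in PDPN+ libraries (log2 difference -3.48, SE 0.37, adjusted p 3.12e-07). Desmoplakin (Dsp), which links the plaque to keratin, was at 15.6 to 25.4 TPM with a median of 20.7 in EpCAM+ libraries and at most 0.360 TPM in PDPN+ libraries (log2 difference -7.58, SE 0.97, adjusted p 3.58e-06). The plakophilins cluster the cadherins, and Pkp3 led them in EpCAM+ libraries at 28.0 to 105 TPM with a median of 91.9. Pkp3 was listed at 0 in 4 PDPN+ libraries and reached 11.9 TPM in mouse V53179 (log2 difference -4.83, SE 1.16, adjusted p 0.00196). Pkp1 was at 2.75 to 32.8 TPM with a median of 20.4 in EpCAM+ libraries and above 0.1 TPM in PDPN+ libraries only in mouse N53184 (0.585 TPM, log2 difference -9.28, SE 1.30, adjusted p 9.26e-06), and the log2 difference was -13.41 without that library.

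The 3 smallest desmosomal differences were those of Pkp2, Evpl and Ppl. Pkp2 was at 5.82 to 21.1 TPM with a median of 8.57 in EpCAM+ libraries and 0.987, 2.35, 1.67 and 0.0327 TPM in the vehicle libraries and 0.0124, 0.0688, 0.817 and 5.58 TPM in the neratinib libraries, so the highest PDPN+ library, mouse N53194, lay just under the lowest EpCAM+ library (log2 difference -2.59, SE 0.82, adjusted p 0.0127). Without the 3 EpCAM+ libraries that stand apart the difference was -2.09 and did not pass (adjusted p 0.0676). Periplakin (Ppl), which ties keratin to the cell edge, was at 11.9 to 21.4 TPM with a median of 14.7 in EpCAM+ libraries and 0.194, 2.89, 5.24 and 0.0174 TPM in the vehicle libraries and 0.896, 5.33, 8.16 and 6.32 TPM in the neratinib libraries (log2 difference -1.80, SE 0.61, adjusted p 0.0202). Envoplakin (Evpl), its partner, overlapped between the sorts, at 0.872 to 9.28 TPM with a median of 5.80 in EpCAM+ and 0 to 2.16 TPM with a median of 0.765 in PDPN+ libraries (log2 difference -2.40, SE 0.95, adjusted p 0.0420). Its call was lost in 11 of the 19 fits that left out 1 library (adjusted p 0.0283 to 0.0622 over the 19), without the 2 PDPN+ libraries that stand apart (0.0566) and with mice as blocks (0.0730).

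Claudins of EpCAM+ cells were led by Cldn4, which tightens the barrier and ranked 70th of all genes by median TPM, at 835 to 2576 TPM with a median of 1730.0. The barrier claudins Cldn3, at 330.2 to 1028 TPM with a median of 758, and Cldn7, at 413 to 835 TPM with a median of 670.0, overlapped in range. Cldn2, which forms a cation-selective pore, was at 162 to 338 TPM with a median of 265. Cldn6, a claudin best known from embryonic epithelia and tumours, was at 173 to 335 TPM with a median of 204, and Cldn23 at 87.5 to 149 TPM with a median of 109.6. Cldn12 was lower at 22.9 to 47.9 TPM with a median of 32.1, and Cldn1, abundant in epidermis, was nearly absent with 83 reads over the 11 EpCAM+ libraries. Cldn2, Cldn3, Cldn4, Cldn6 and Cldn7 together made up 94.3 to 97.4% of claudin TPM in EpCAM+ libraries and 38.9 to 75.3% in PDPN+ libraries.

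Of the 8 claudins tested between the sorts 7 were lower in PDPN+ cells, but by very different amounts. Cldn4 was at 0, 13.0, 0.976 and 0 TPM in the vehicle libraries and 0.0204, 0.0369, 7.25 and 7.02 TPM in the neratinib libraries, so 5 libraries held under 1 TPM and mouse V53179 the most (log2 difference -8.48, SE 1.31, adjusted p 3.00e-05). Cldn3 was at 144, 103, 82.9 and 95.4 TPM in the vehicle libraries and 9.38, 67.5, 113 and 59.8 TPM in the neratinib libraries, with mouse N53178 far under the other 7 (log2 difference -2.70, SE 0.37, adjusted p 7.51e-06). The mean PDPN+ level was 11.5% of the EpCAM+ level for Cldn3 and 0.208% for Cldn4. Cldn7 and Cldn2 stayed at or under 2.04 TPM in every PDPN+ library (log2 differences -10.71, SE 0.91, adjusted p 2.08e-08 and -11.13, SE 1.01, adjusted p 4.81e-08), and Cldn6 at or under 5.33 TPM (-6.92, SE 1.21, adjusted p 1.07e-04). Cldn12 had a log2 difference of -3.61 (SE 0.60, adjusted p 6.47e-05).

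Cldn23 had 74696 reads in EpCAM+ and 0 in PDPN+ libraries, which makes it at least 1140.5-fold higher in EpCAM+ cells against the floor of 3 reads. Cldn1 had 1 read in PDPN+ libraries, a ratio of 40.6 with a 95% counting interval of 7.09 to 1623. Such intervals cover counting error only.

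Cldn15 ran the other way. This claudin, which forms a sodium pore in the intestine, was at 0.227 to 4.01 TPM with a median of 0.700 in EpCAM+ libraries and at 31.8, 68.5, 47.6 and 43.7 TPM in the vehicle libraries and 11.9, 82.6, 46.1 and 106 TPM in the neratinib libraries. Every PDPN+ library lay above every EpCAM+ library, with mouse N53194 the highest and mouse N53178 the lowest of the PDPN+ libraries. The log2 difference was 5.99 (SE 0.59, adjusted p 1.34e-07), and the call held without the libraries that stand apart and with any 1 library left out.

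Tight junction membrane proteins other than claudins were all lower in PDPN+ cells. Occludin (Ocln) was at 127 to 228 TPM with a median of 168 in EpCAM+ libraries and at 0 in 5 PDPN+ libraries, with at most 1.65 TPM in mouse N53194 (log2 difference -9.11, SE 1.19, adjusted p 4.25e-06). Without the PDPN+ library of mouse V53185 the log2 difference of Ocln was -12.44, and -11.37 without that of mouse N53194. Tricellulin (Marveld2), which seals the corners where 3 cells meet, was at 16.6 to 24.6 TPM with a median of 19.6 in EpCAM+ libraries, and Marveld3, a relative of occludin, at 47.4 to 105 TPM with a median of 79.3. Marveld2 was above 0 in 1 PDPN+ library, mouse V53185 (0.443 TPM), and Marveld3 in 2 (log2 differences -10.56, SE 1.17, adjusted p 1.99e-06 and -10.27, SE 0.90, adjusted p 3.32e-08). Without the library of mouse V53185 they were -13.89 for Marveld2, which then had 0 reads in PDPN+ cells so that the value is no bound, and -13.18 for Marveld3.

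F11r, or JAM-A, an adhesion molecule of tight junctions also found on endothelium and blood cells, had the smallest called difference. It was at 383 to 706 TPM with a median of 496 in EpCAM+ libraries and 324, 243, 118 and 133 TPM in the vehicle libraries and 73.4, 62.6, 123 and 128 TPM in the neratinib libraries. No PDPN+ library reached the lowest EpCAM+ library, the nearest being mouse V53175, and the mean PDPN+ level was 30.1% of the EpCAM+ level (log2 difference -1.31, SE 0.21, adjusted p 5.00e-05).

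The scaffolds behind the membrane proteins were all lower, to different degrees. ZO-1 (Tjp1), which also serves other cell contacts, was at 23.6 to 40.2 TPM with a median of 32.5 in EpCAM+ libraries and 0.00433, 11.0, 3.47 and 3.71 TPM in the vehicle libraries and 0.993, 12.8, 4.26 and 5.98 TPM in the neratinib libraries (log2 difference -2.55, SE 0.73, adjusted p 0.00716). Cingulin (Cgn), which links the junction to actomyosin, was at 35.4 to 59.7 TPM with a median of 47.2 in EpCAM+ and 0.515 to 16.5 TPM with a median of 5.55 in PDPN+ libraries (log2 difference -2.99, SE 0.46, adjusted p 2.53e-05). ZO-3 (Tjp3), an epithelial scaffold, was at 34.1 to 99.0 TPM with a median of 49.8 in EpCAM+ libraries and above 0 only in mouse V53185 among PDPN+ libraries, at 0.905 TPM (log2 difference -11.57, SE 1.19, adjusted p 8.92e-07). Without that library Tjp3 had 0 reads in PDPN+ cells, and the fitted -15.04 is no bound.

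Both adhesion genes were close to absent from PDPN+ cells. E-cadherin (Cdh1), the classical cadherin of adherens junctions, was at 175 to 930.2 TPM with a median of 682 in EpCAM+ libraries and reached 1.98 and 1.62 TPM in PDPN+ libraries of mouse V53179 and mouse N53184, with at most 0.530 TPM in the other 6 (log2 difference -9.61, SE 1.38, adjusted p 1.28e-05). Epcam was at 114 to 897 TPM with a median of 198 in EpCAM+ libraries and at most 0.540 TPM in PDPN+ libraries (log2 difference -11.05, SE 0.93, adjusted p 1.91e-08). The mean PDPN+ level was 0.0414% of the EpCAM+ level for Epcam and 0.0885% for Cdh1, both far under the shares given above for Krt8 and Krt19.

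Connexins split by type. Gjb1 (connexin 32), the main connexin of liver and exocrine pancreas, was at 140.4 to 333 TPM with a median of 183 in EpCAM+ libraries and had 1 read in all PDPN+ libraries against 117023, a ratio of 57241 with a 95% counting interval of 10274 to 2260930.0. Gjb2 (connexin 26) was at 7.42 to 14.2 TPM with a median of 9.81 in EpCAM+ libraries and, among PDPN+ libraries, at 5.09 TPM in mouse V53175 and at most 0.0424 TPM in the other 7 (log2 difference -7.46, SE 1.46, adjusted p 5.28e-04, and -10.82 without the library of mouse V53175). Gja1 (connexin 43), the common connexin of fibroblasts and muscle, was at 3.33 to 52.5 TPM with a median of 14.4 in EpCAM+ libraries and 47.5, 242, 183 and 99.6 TPM in the vehicle libraries and 141, 166, 123 and 128 TPM in the neratinib libraries. The sorts overlapped in Gja1 only where the lowest PDPN+ library, mouse V53175, fell under the highest EpCAM+ library, mouse V53192. The log2 difference of Gja1 was 3.31 (SE 0.46, adjusted p 7.78e-06).

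Other genes of the same structures, listed by function, behaved differently from group to group. Of 10 further keratins tested 7 were lower and 1 was higher in PDPN+ cells, and the most abundant, Krt10, a keratin of upper epidermal layers, did not pass (32.4 TPM in EpCAM+ and 18.2 TPM in PDPN+ libraries, log2 difference -0.36, adjusted p 0.412), while Krt79 was lower (9.19 TPM in EpCAM+ and 0.568 TPM in PDPN+ libraries, log2 difference -6.34, adjusted p 7.03e-04). Of 3 further desmosomal genes 2 were lower, among them the desmosomal membrane protein Perp (143 TPM in EpCAM+ and 4.39 TPM in PDPN+ libraries, log2 difference -4.62, adjusted p 0.00101), and the linker plectin (Plec) did not pass (26.6 TPM in EpCAM+ and 32.95 TPM in PDPN+ libraries, log2 difference 0.23, adjusted p 0.520). Among 10 adherens junction genes 6 were lower and 2 higher. The catenins that anchor cadherins to actin, which most cells make, were lower in PDPN+ cells by far less than Cdh1: Ctnna1 was at 540.1 TPM in EpCAM+ and 103 TPM in PDPN+ libraries (log2 difference -1.96, adjusted p 2.44e-08) and Ctnnb1 at 349 TPM in EpCAM+ and 116 TPM in PDPN+ libraries (log2 difference -1.52, adjusted p 2.56e-05).

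Among 17 further tight junction genes 10 were lower and 5 higher, the gastric claudin Cldn18 (426 TPM in EpCAM+ and 1.36 TPM in PDPN+ libraries, log2 difference -9.51, adjusted p 4.66e-07) and the polarity protein Crb3 (239.6 TPM in EpCAM+ and 0.0804 TPM in PDPN+ libraries, log2 difference -12.88, adjusted p 9.71e-10) being the most abundant. The higher ones were Cldn10, Cldn5, Jam2, Jam3 and Marveld1, so Cldn15 was not the only claudin higher in PDPN+ cells. Cldn10 was at 0.518 TPM in EpCAM+ and 51.8 TPM in PDPN+ libraries (log2 difference 7.13, edgeR adjusted p 7.81e-10). Cldn5 was at 0.0408 TPM in EpCAM+ and 0.471 TPM in PDPN+ libraries (log2 difference 4.76, edgeR adjusted p 0.00987).

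Regulators of epithelial expression differed as well. Of 12 that promote it, among them the splicing regulators Esrp1 and Esrp2, 9 were lower and 1 was higher in PDPN+ cells. The epithelial ETS factor Elf3 was lower (832 TPM in EpCAM+ and 3.56 TPM in PDPN+ libraries, log2 difference -7.73, adjusted p 2.25e-05), and Klf4, a factor of epithelia and of fibroblasts, was higher (52.4 TPM in EpCAM+ and 276 TPM in PDPN+ libraries, log2 difference 2.89, adjusted p 1.61e-10). All 5 repressors of junction genes (Snai1, Snai2, Zeb1, Zeb2 and Twist1) were higher in PDPN+ cells. Zeb2 was at 0.827 TPM in EpCAM+ and 40.0 TPM in PDPN+ libraries (log2 difference 6.12, adjusted p 1.17e-07) and Zeb1 at 1.40 TPM in EpCAM+ and 27.1 TPM in PDPN+ libraries (log2 difference 5.10, adjusted p 6.57e-07). These counts read against the 25.0% of all genes lower and 24.3% higher in PDPN+ cells.

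The tables list 145 transcripts of the 43 genes, 10 of which have a single transcript, and in 24 genes the leading transcript held over 90% of the gene's mean EpCAM+ TPM. Of 22 genes with a mean of at least 1 TPM in PDPN+ libraries 20 had the same leading transcript in both sorts by mean TPM, among them 6 with a single transcript, which had no other to use. In Pkp3 the transcript ENSMUST00000066873 held 66.9 to 82.1% of the gene's TPM in EpCAM+ libraries and 0.4 to 13.8% in the 4 PDPN+ libraries with at least 1 TPM of Pkp3, where ENSMUST00000160403 held 84.3 to 99.6% against 5.3 to 22.2% in EpCAM+ libraries. In Cgn the transcript ENSMUST00000107272 held 29.6 to 73.0% of the gene's TPM in EpCAM+ libraries and 0 to 100% in the 7 PDPN+ libraries with at least 1 TPM of Cgn, and ENSMUST00000153263 held 7.4 to 18% and 0 to 96.2%. Among these 7 PDPN+ libraries ENSMUST00000107272 held the larger share of the pair in 4, so Cgn had no common leading transcript there. These shares are Salmon's estimates and were not tested.

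Some genes of the set separated 3 EpCAM+ libraries from the other 8. The 3 that stand apart came from mice V53175, V53176 and N53178. In depth-scaled counts they lay all above or all below the other 8 in 9 of 42 genes (21.4%). Over the 17200 genes tested in EpCAM+ cells the share was 27.2%, so that of the set is no higher than the background. The 3 are described as libraries, with no test. Cdh1 was at 175 to 207 TPM in the 3 against 569 to 930.2 TPM in the other 8, and Epcam was at 582 to 897 TPM against 114 to 208 TPM, so the genes of these 2 surface adhesion proteins stood apart in opposite directions.

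Pkp2 was the other gene above, at 17.7 to 21.1 TPM against 5.82 to 11.9 TPM, while Pkp1, at 2.75 to 4.64 TPM against 11.5 to 32.8 TPM, and Pkp3, at 28.0 to 37.8 TPM against 81.1 to 105 TPM, lay below. The 3 plakophilins thus did not move together. Also below were Jup (149 to 168 against 218 to 441 TPM), Evpl (0.872 to 1.19 against 5.22 to 9.28 TPM), Krt80 (3.69 to 4.60 against 9.06 to 21.5 TPM) and Cldn7 (413 to 512 against 609 to 835 TPM). In TPM, though not in depth-scaled counts, Krt7 (1048 to 1107 against 1254 to 2009 TPM) and Cldn23 (87.5 to 100.9 against 107 to 149 TPM) also lay below. Krt8, Krt18 and Krt19 of the 3 lay inside the range of the other 8 or overlapped it. In Dsp, whose level did not separate them, the transcript ENSMUST00000124830 held 41.7 to 46.5% of the gene's TPM in the 3 and 52.2 to 58.5% in the other 8.

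Beside these levels, the 5 islet hormone and granule genes summed to 1723 to 4624 TPM in the 3 libraries and 146 to 749 TPM in the other 8, with all 5 at 10 reads or more in each of the 3 and 4 of 5 in each of the 8. The 5 neutrophil markers summed to 33.7 to 97.7 TPM against 1.71 to 17.0 TPM. The 5 repressors of junction genes summed to 0.973 to 1.23 TPM in the 3 and 3.56 to 11.3 TPM in the other 8. The part of other cells in the split was not tested.

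**Figure D3:**
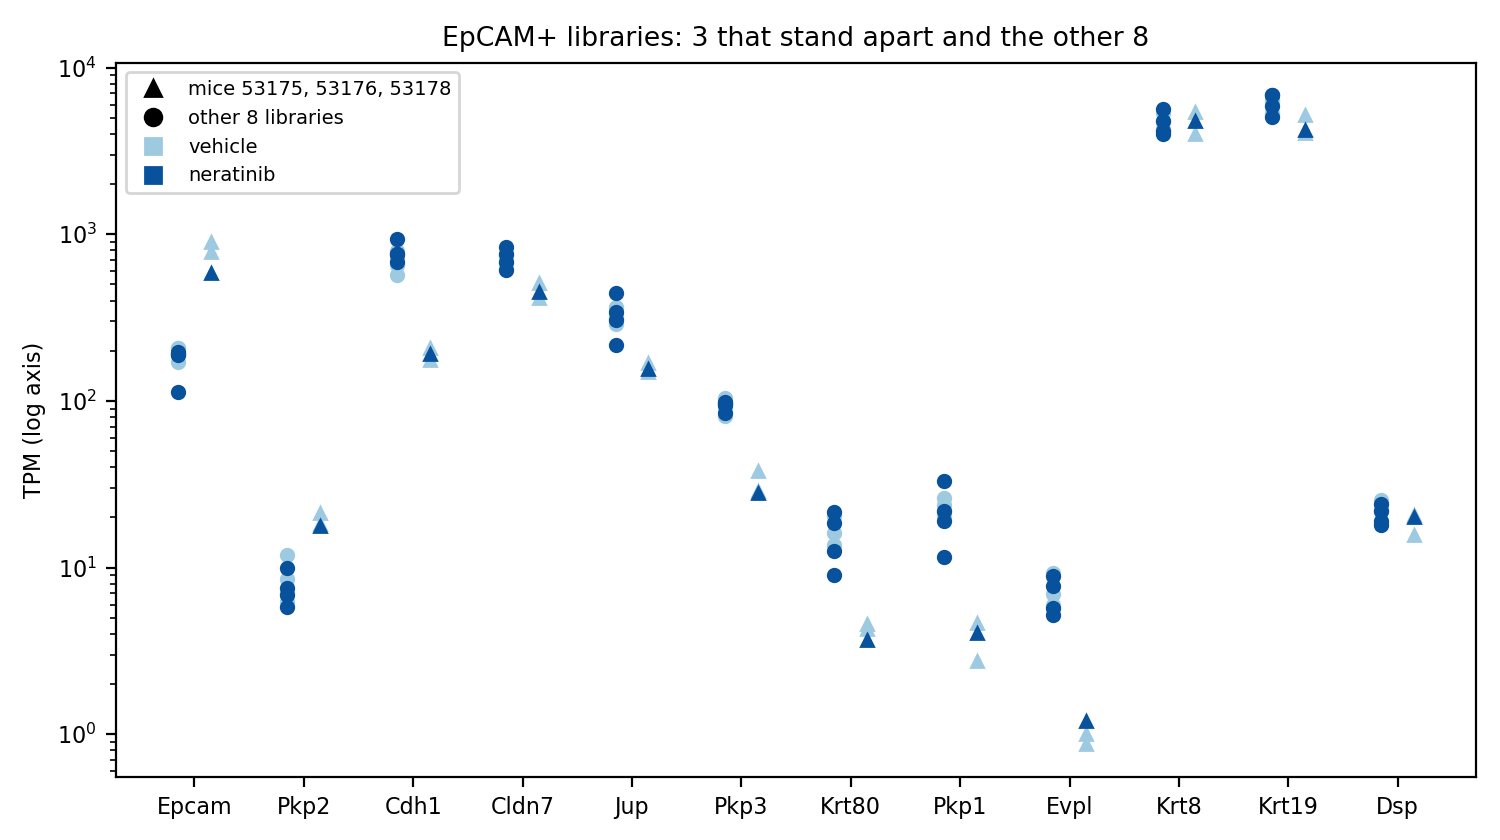
TPM on a log axis in the 3 EpCAM+ libraries that stand apart and the other 8, each point 1 library. Shown are the 9 genes that separated them in depth-scaled counts, and Krt8, Krt19 and Dsp, which did not. Epcam and Pkp2 lie above in the 3, and Cdh1, Jup, Cldn7, Pkp1, Pkp3, Evpl and Krt80 below.

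No gene of the set passed a test for neratinib in EpCAM+ cells. Of 42 genes tested edgeR's quasi-likelihood test called 0 at an adjusted p under 0.05, as it did among all 17200 genes (0%). At an unadjusted p under 0.05 there was 1 of 42, against 3.05% of all genes, and DESeq2 and limma called 0 of them, against 0.0539% and 0% of all genes. In none of the 42 did the vehicle and neratinib libraries separate in depth-scaled counts, against 0.238% of all genes. The log2 changes, neratinib minus vehicle, ran from -0.99 (Krt17) to 1.19 (Krt5), 24 positive and 18 negative, with a median of 0.04 against 0.00 over all genes.

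The gene with the smallest p was Gjb1, at from 140.4 to 217 TPM with a median of 162 in 6 vehicle libraries and 183, 325, 170.2, 333 and 208 TPM in the neratinib libraries of mice N53178, N53180, N53184, N53193 and N53194. Neratinib mice N53180 and N53193 were above every vehicle library and the other 3 were within the vehicle range. The means were 170.0 ± 30.1 TPM (SD, n = 6) and 244 ± 78.7 TPM (SD, n = 5), and the log2 change of 0.44 (SE 0.20, unadjusted p 0.0479) did not hold over all genes (edgeR adjusted p 0.999).

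The abundant keratins were measured closely. Krt8 was from 4014 to 5399 TPM with a median of 4529 in vehicle libraries and 4805, 5627, 3980.2, 4785 and 4143 TPM in the neratinib libraries, in the same order of mice, with a log2 change of -0.08 (SE 0.14). Krt19 was from 4052 to 6369 TPM with a median of 5282 in vehicle libraries and 4230.1, 6838, 5045, 6809.8 and 5914 TPM under neratinib, with a log2 change of 0.03 (SE 0.15). The groups overlapped in both genes. Krt18 had a log2 change of -0.14 (SE 0.14), Krt7 of -0.22 (SE 0.16) and Krt17 of -0.99 (SE 0.68). The type I to type II ratio was 2.05 ± 0.06 in vehicle libraries (SD, n = 6) and 2.15 ± 0.19 in neratinib libraries (SD, n = 5), and the ranges overlapped.

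Junction genes of EpCAM+ cells gave log2 changes of -0.08 (SE 0.13) for Dsp, -0.33 (SE 0.28) for Cldn4, 0.05 (SE 0.17) for Cldn7, 0.10 (SE 0.17) for Ocln and 0.13 (SE 0.16) for Tjp1. Cdh1 had 0.29 (SE 0.44) and Gja1 0.20 (SE 0.67). For Epcam the log2 change was -0.79 (SE 0.61, unadjusted p 0.220), and -0.24 (SE 0.17) without the 3 libraries that stand apart, 2 of them vehicle and 1 neratinib. The smallest unadjusted p after Gjb1 among positive changes belonged to Dsc2, with 0.30 (SE 0.19, unadjusted p 0.133), and Krt5, with 1.19 (SE 0.92). Among negative changes they belonged to Ppl, with -0.27 (SE 0.15, unadjusted p 0.0874), Krt23, with -0.42 (SE 0.23, unadjusted p 0.0903), and Gjb2, with -0.30 (SE 0.21, unadjusted p 0.169).

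In PDPN+ cells 21 of the genes had enough reads for a test, and 0 of them passed, as among all 14437 genes tested there (0%). At an unadjusted p under 0.05 there were 2 of 21, Cldn12 and F11r, against 2.29% of all genes, while DESeq2 and limma called 0 of the set against 0.345% and 0% of all genes. The 21 leave out the genes read in 1 PDPN+ library alone, and also genes such as Cdh1, Dsp, Epcam and Ocln, read in several. They include the genes that PDPN+ cells hold in quantity, but also sparse ones such as Krt20 and Pkp3, each at 0 reads in 4 of the 8 libraries. The median log2 change of the 21 was 0.08 against 0.06 over all genes, with 13 positive and 8 negative.

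Cldn12, a claudin of broad expression, was at 15.4, 10.5, 9.45 and 0.793 TPM in the vehicle libraries and 0.0629, 0.00897, 0.575 and 0.775 TPM in the neratinib libraries. The 3 highest libraries were mice V53175, V53179 and V53185, and the lowest vehicle library, mouse V53188, was just above the highest neratinib library, mouse N53194. The 3 highest had the lowest mitochondrial shares, 6.14 to 10.4%, against 12.39 to 19.45% in the other 5, which held under 0.8 TPM and include all 4 neratinib libraries and mouse V53188 at 17.32%. The part of this share in the difference was not tested. Cldn12 was the only gene of the set whose groups did not overlap in depth-scaled counts, against 2.27% of all genes tested. The means were 9.04 ± 6.08 and 0.355 ± 0.378 TPM (SD, n = 4 each), and the log2 change of -4.29 (SE 1.49, unadjusted p 0.0157) had an edgeR adjusted p of 1.000. In an edgeR fit over all 19 libraries with a shared spread the change was -4.27 with an adjusted p of 0.0390. In that fit 111 of 19626 genes (0.566%) passed. Without the 2 PDPN+ libraries that stand apart the change was -3.92 (edgeR unadjusted p 0.0421). Both of those libraries were vehicle, so mice V53179 and V53185 alone then stood for vehicle.

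F11r was at 324, 243, 118 and 133 TPM in the vehicle libraries and 73.4, 62.6, 123 and 128 TPM in the neratinib libraries. The 2 highest libraries were mice V53175 and V53179, and the other vehicle values lay among the neratinib values. The means were 204 ± 97.7 and 96.6 ± 33.4 TPM (SD, n = 4 each), with a log2 change of -1.05 (SE 0.42, unadjusted p 0.0300). Without the 2 libraries that stand apart, both vehicle, the change was -0.73 (unadjusted p 0.159).

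Simple keratins of PDPN+ cells did not pass: the log2 change was 0.00 (SE 0.47) for Krt8, 0.15 (SE 0.48) for Krt19, 0.03 (SE 1.18) for Krt18 and -0.30 (SE 0.84) for Krt7. Among junction genes Gja1 had 0.12 (SE 0.37), Cldn4 0.26 (SE 2.33) and Tjp1 0.97 (SE 1.48). The genes with the next smallest p were Cldn3 on the negative side, with -0.68 (SE 0.62), and Ppl, Dsg2 and Cgn on the positive side, with 1.68 (SE 1.33), 1.76 (SE 1.72) and 0.82 (SE 1.04). The SEs of several are above 1, so a 2-fold change would lie within their error.

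Genes read in few PDPN+ libraries have no usable fold change under neratinib. Gjb2 was listed at 0 in all 4 neratinib libraries and 2 vehicle libraries, Krt6a was seen only in mouse V53179, Marveld2 and Tjp3 only in mouse V53185, and Pkp1 had 110 reads in mouse N53184 and 1 read in all other PDPN+ libraries together. Such single-library values cannot be told from differences between mice.

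**Figure D4:**
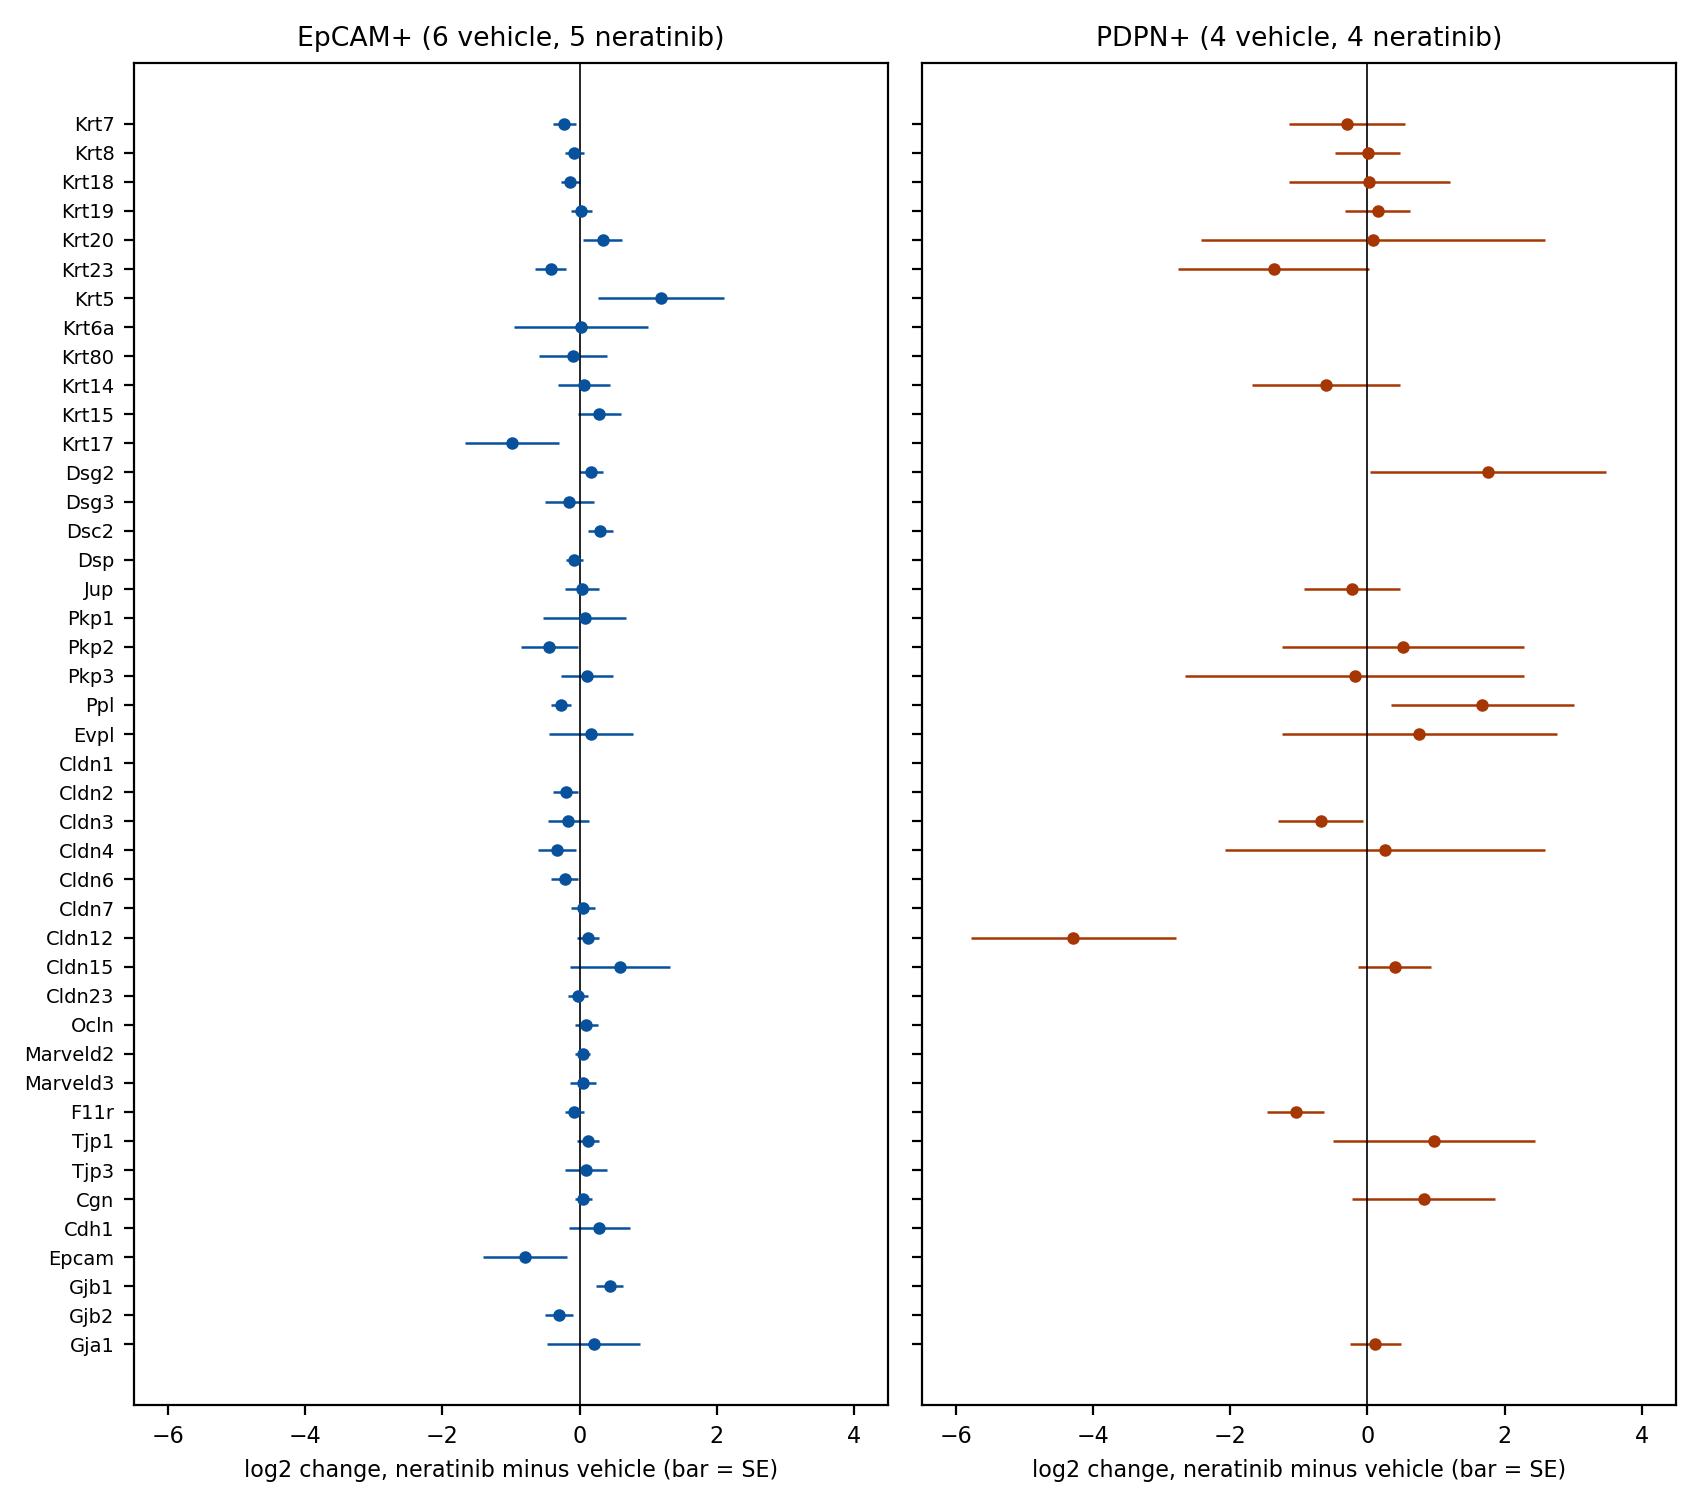
Log2 change under neratinib with its SE for the tested genes, EpCAM+ cells in one panel and PDPN+ cells in the other, on the same axis. Changes of EpCAM+ cells crowd around 0 with short bars, and those of PDPN+ cells scatter with long bars, Cldn12 lying farthest to the left at -4.29.

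Whether the drug's effect differed between the sorts was tested as an interaction over all 19 libraries, and 0 of 42 genes passed (edgeR), against 0.0662% of 19626 genes. At an unadjusted p under 0.05 there were 10 of 42, against 11.2% of all genes. DESeq2 called 3 of them (Cldn12, Gjb2 and Krt6a) against 3.03% of all genes, and limma 0 against 0.0320%. Without the 2 PDPN+ libraries that stand apart edgeR called 4 (Cldn12, Cldn2, Marveld2 and Tjp3) against 572 of 21826 genes (2.62%). Both of those libraries were vehicle, which left mice V53179 and V53185 as the PDPN+ vehicle group. Marveld2 and Tjp3 had PDPN+ reads only in mouse V53185 (55 and 67 reads). The interaction of Cldn12, the effect in PDPN+ minus that in EpCAM+ cells, was -4.42 (SE 1.08, adjusted p 0.127), and -4.74 (adjusted p 0.0403) without the PDPN+ library of mouse V53188, where 0.639% of all genes passed. It was -0.97 (SE 0.41, adjusted p 0.353) for F11r and -4.996 (SE 1.52, adjusted p 0.186) for Cldn2, of which PDPN+ cells had 242 reads in mouse V53179 and at most 26 in any other library. For Gjb2 it was -9.88 (SE 2.70, edgeR adjusted p 0.159), with 387 PDPN+ reads in mouse V53175 and 4 in mouse V53185. For Pkp1 it was 6.25 (SE 2.18, edgeR adjusted p 0.234), with 110 PDPN+ reads in mouse N53184 and 1 in mouse V53188.

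For the simple keratins the interaction was near 0, with 0.07 (SE 0.46) for Krt8, 0.12 (SE 0.48) for Krt19, 0.15 (SE 1.17) for Krt18 and -0.08 (SE 0.82) for Krt7. Gja1 had -0.10 (SE 0.87), Cldn4 0.57 (SE 1.80) and Tjp1 0.82 (SE 1.34). For Krt17, Dsp, Cldn7, Ocln, Cdh1, Epcam and Ppl it was -1.21 (SE 1.62), 0.54 (SE 1.41), -1.62 (SE 1.24), 2.38 (SE 1.66), 0.09 (SE 1.80), -1.08 (SE 1.33) and 1.904 (SE 1.17), each within 2 SEs of 0. The median over the 42 genes was -0.25 against 0.02 over all genes. The other keratin, junction and regulator lists had 0 genes called under neratinib in either sort by edgeR, with 0 to 2 genes per list at an unadjusted p under 0.05. In EpCAM+ cells these were 1 of 10 adherens and 1 of 16 tight junction genes, against 3.05% of all genes. In PDPN+ cells they were 1 of 9 adherens junction, 2 of 12 tight junction and 1 of 5 repressor genes, against 2.29%.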

How the data were processed

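Per the labels' protocols, RNA of sorted cells was extracted with a kit for small samples and amplified with a low-input kit, with more PCR cycles for smaller amounts. Per the submitters' processing notes, the authors used Salmon 1.9.0 and GRCm39/mm39. The transcriptome release is not given in the sources used here, nor is a strand setting. Per the file headers, each deposited table has TPM and estimated counts for 147828 transcripts. By identifier, 137063 of them could be joined to 51707 genes of GENCODE M21, and the other 10765 were left out. Summed counts were rounded and tested with edgeR 4.0.16 (R 4.3.3, TMM, filterByExpr, quasi-likelihood F-test, robust), after tests on simulated data, with Benjamini-Hochberg adjustment over all genes tested. The SE given with an edgeR value was worked back from the test, as the size of the log2 value over the square root of F. Alternatives used DESeq2 1.42.0, limma 3.58.1 on log2(TPM + 1), no filter, other size factors, other sets of libraries and mice as blocks. Mice pair libraries by label number. Deviations of the 8 pairs from their group means correlated at -0.11 to 0.03 across genes. All 43 genes are named; the neratinib comparisons name a fixed set and the 3 genes per direction with the smallest p. The genes and lists were chosen with earlier results of these data known. The result of 1 further gene list is not reported here.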

Additional observations from a re-analysis of the deposited data

Results flagged for a closer look

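In groups of 4 to 6 libraries, the TPM of a library at the edge of its group was set against Dixon's 95% critical value, for 131 pairs of gene and group with a highest level of at least 1 TPM, and 19 passed. For normally distributed values chance passes about 1 in 20 groups. TPM values with many zeros are skewed, and pairs were kept by their highest library. That rate therefore does not hold here, and the number of flags is not read against it. PDPN+ libraries gave 14 of the 19. Vehicle mouse V53179 was high for Krt20 (6.68 TPM), Krt6a (1.99 TPM), Krt14 (99.1 TPM), Cldn2 (2.04 TPM), Cldn4 (13.0 TPM) and Cdh1 (1.98 TPM). Neratinib mouse N53184 was high for Krt20 (5.70 TPM), Krt15 (8.01 TPM) and Cldn6 (3.74 TPM). Neratinib mouse N53194 was high for Krt23 (27.6 TPM), Pkp2 (5.58 TPM) and Ocln (1.65 TPM). Vehicle mouse V53185 was high for Krt15 (2.10 TPM), and mouse V53175 for Gjb2 (5.09 TPM). The other libraries of those groups reached at most 0.831 TPM of Krt20 and 0.976 TPM of Cldn4 among vehicle mice.

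EpCAM+ libraries gave 5 of the 19. Neratinib mouse N53184 was high for Krt14 (96.6 TPM, the others 26.0 to 43.6 TPM), mouse V53176 for Krt15 (6.66 TPM) and mouse N53180 for Ppl (18.1 TPM). Neratinib mouse N53178, among the 3 EpCAM+ libraries that stand apart, was low for Pkp3 (28.0 TPM, the others 85.1 to 98.7 TPM) and high for Epcam (582 TPM, the others 114 to 198 TPM).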

How the results depend on the processing

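The 37 lower and 2 higher calls between the sorts came to 36 to 37 and 2 when any 1 library was left out. With mice as replicate blocks over the 8 mice with both sorts 39 genes were called, Krt15 gained (-7.15) and Evpl lost (-3.69), and the interaction had 0 calls. Calls over all genes were 49.2% higher in PDPN+ cells by edgeR, 27.0% by limma on TPM and 38.2% with blocks, with medians over all genes of -0.13, -0.63 and -0.67. DESeq2 gave no adjusted p for Dsp and Marveld2 between the sorts. Under neratinib 0 genes were called in EpCAM+ cells by every alternative run. In PDPN+ cells the fit of all 19 libraries called 1, and 111 of 19626 genes. The interaction had 3 calls with DESeq2 and 0 to 1 with 1 library left out. It had 4 without the 2 PDPN+ libraries that stand apart, both vehicle, where 572 of 21826 genes were called. The ratio of type I to type II keratins in reads was 1.454 in EpCAM+ and 1.374 in PDPN+ libraries. Gene by gene, signs turned in some setting for 1 of 42 genes between the sorts, 5 of 19 named for EpCAM+ cells, 6 of 13 for PDPN+ cells and 13 of 18 for the interaction, none of them called, and the cause was not tested.

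Log2 values with the opposite sign were, between the sorts, Krt14 at -0.57 (limma) and -0.29 (replicate block). For neratinib in EpCAM+ cells they were Dsp 0.003 and Krt8 0.006 (limma), Gja1 -0.10 (without the 3 libraries that stand apart) and Krt19 -0.017 (a digit of the library name code as covariate, an alternative chosen after seeing the data). In PDPN+ cells without the 2 libraries they were Cldn4 -0.78, Gja1 -0.36, Krt18 -0.22 and Krt8 -0.14, with Krt18 -0.036 (digit covariate) and Krt8 -0.005 (no filter) and -0.22 (limma). For the interaction without those 2 they were Cdh1 -0.90, Cldn4 -0.42, Dsp -0.37, Krt18 -0.075, Krt8 -0.051, Tjp1 -0.11 and Krt7 0.082. Without the 3 EpCAM+ libraries they were Gja1 0.20 and Krt7 0.007, with limma Cdh1 -0.29, Epcam 0.35, Krt17 0.41, Krt8 -0.23 and Pkp1 -0.034, and with blocks Krt17 0.30.

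Leaving out 1 library moved these signs within the following ranges. Between the sorts Krt14 ran from -0.25 to 0.36. In EpCAM+ cells Cldn7 ran from -0.04 to 0.15, Gja1 from -0.11 to 0.83 and Krt19 from -0.042 to 0.12. In PDPN+ cells Cldn4 ran from -0.54 to 3.86, Gja1 from -0.15 to 0.46, Krt18 from -0.41 to 0.42, Krt19 from -0.048 to 0.63, Krt7 from -0.71 to 0.29 and Krt8 from -0.31 to 0.29. For the interaction Cdh1 ran from -1.75 to 5.86, Cldn4 from -0.19 to 4.05, Dsp from -1.40 to 3.83, Gja1 from -0.70 to 0.25, Krt17 from -2.25 to 1.99, Krt18 from -0.26 to 0.50, Krt19 from -0.058 to 0.59, Krt7 from -0.49 to 0.49, Krt8 from -0.24 to 0.38, Ocln from -2.09 to 9.03 and Pkp1 from -1.84 to 8.04. For genes at 0 reads in PDPN+ cells depth allows no fold beyond the limit of 3 reads.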
